A study of Homo sapiens with 6 samples.

Results

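A pair of guide RNAs that target the same gene was compared with each other: the sgRNA3 libraries against the sgRNA1 libraries of CFPAC-1 cells carrying either guide against SULF2. The comparison used 4 of the 6 RNA-seq libraries of the study, 2 with sgRNA3 and 2 with sgRNA1. The remaining 2 libraries are labelled as a knockdown of LACZ, a bacterial gene that human cells lack. They serve as the control level and entered neither the test nor the filter on low values. CFPAC-1 is an established human line of pancreatic ductal adenocarcinoma, and both SULF2 groups are knockdown cells of that line, one per guide. The labels do not say if the guides act by cutting or by repression, where in SULF2 they lie, whether each line is a clone or a pool, or whether replicate libraries are separate cultures. The p-values below therefore measure only the spread between libraries, which may be technical. Abundance was in TPM (transcript abundance scaled by transcript length and to the same total in each library), and 15786 genes with a TPM of at least 1 in at least 2 of the 4 libraries were tested on log2(TPM + 1). A positive difference means more transcript with sgRNA3. Below, a pair of values is replicate 1 and replicate 2, "against" sets sgRNA1 before sgRNA3, and brackets after such values give the log2 difference and, where a second number follows, limma's adjusted p.

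SULF2 encodes an extracellular sulfatase that takes 6-O-sulfate groups off heparan sulfate, a long sugar on membrane and matrix proteins to which growth factors, chemokines and cytokines bind. A pair of guides against a gene is commonly used so that what they share can be read as the effect of the target and what differs between them as a property of one guide or of one cell line. Genes induced by interferon, ligands of the EGF receptor and neutrophil chemokines take up most of what follows. Interferons act through the STAT and IRF factors, which bind a short promoter element and switch on proteins that block viruses. EGF receptor ligands and CXC chemokines are secreted proteins, and ductal cancer cells are a known source of both.

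The 4 libraries were alike in their general properties. From 15563 to 15705 genes per library had a TPM of 1 or more, and 10.3% to 11.2% of all TPM were mitochondrial transcripts. The depth of the libraries is unknown because TPM keeps no depth. Over the tested genes the median absolute difference was 0.15 on the log2 scale between the sgRNA1 libraries, 0.13 between the sgRNA3 libraries and 0.18 to 0.20 between libraries of different guides. Of 12 markers of ductal epithelium 11 were tested, summing to 8518 and 8309 TPM with sgRNA1 and to 8968 and 8927 with sgRNA3, while CFTR, the chloride channel, stayed between 0.07 and 0.3 TPM in these 4 libraries. Acinar, islet, endothelial, fibroblast and leukocyte markers had 2 tested members in each list. The fibroblast sum, nearly all COL1A1, was 60.8 and 58.6 TPM with sgRNA1 and 41.8 and 37.7 with sgRNA3, and the leukocyte sum was 11.9 and 13.02 against 7.93 and 7.72. Over all 6 libraries the acinar sum was 2.67 to 4.69 TPM, the islet sum 2.7 to 6.56 and the endothelial sum 6.26 to 7.47. Members of these lists differed. THY1 and AIF1 were at 0 in all 6 libraries and PTPRC, the pan-leukocyte antigen CD45, was at 0.1 TPM or less. CD14 (2.26 to 8.94 TPM) and LYZ (4.35 to 6.42), which make up most of the leukocyte sum, were present. So were PECAM1 (3.51 to 4.38) and LUM (1.05 to 2.1).

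SULF2 itself (ENSG00000196562, chromosome 20, 47656348 to 47786616 on GRCh38, minus strand) was at 8.98 and 12.8 TPM in the sgRNA1 libraries and at 10.1 and 9.24 TPM in the sgRNA3 libraries, against 25.7 and 22.5 in LACZ. Both sgRNA3 values lay inside the range of the sgRNA1 values. Means were 10.9 ± 2.71 TPM with sgRNA1 (SD, n = 2) and 9.65 ± 0.587 with sgRNA3. The log2 difference between the guides was -0.14 (SE 0.20, 95% interval -0.67 to 0.39, limma adjusted p = 0.78), so a difference in the target's transcript between the lines was not shown, and the interval leaves room for one in either direction. Without the second sgRNA1 library the estimate was 0.093. NCOA3 overlaps SULF2 on the opposite strand and was at 14.5 to 16.8 TPM in the 4 libraries. SULF1, the closest paralog, was listed at 0 in all 6 libraries.

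Of the 15786 genes, 7 were higher with sgRNA3 (0.0443% of genes tested) and 5 were lower (0.0317%) at a limma adjusted p under 0.05, 12 in all (0.076%). The genes that rose with sgRNA3 were MAMDC2, MX1, AREG, ISG15, F3, CXCL5 and FTL, and those that fell were LCN2, SAT1, CST1, AL020996.3 and AC069257.1. In all 12 the sgRNA3 libraries did not overlap the sgRNA1 libraries. Such separation alone is common with 2 libraries a group: it held for 29% of all genes with sgRNA3 higher and for 18.9% with sgRNA3 lower. An exact permutation test of a single gene cannot go below a two-sided p of 0.333 in this design, so the calls rest on the variance that limma shares across genes. The 2 libraries a group leave 2 residual degrees of freedom, and all 12 calls were lost when any 1 of the 4 libraries (sgRNA1 replicate 1 or 2, sgRNA3 replicate 1 or 2) was left out. MX1, AREG, ISG15, F3, CXCL5, FTL, SAT1 and AL020996.3 shared a limma adjusted p of 0.0495, just under the threshold. Median-of-ratios scaling and quantile normalization each gave 1 gene higher and 2 lower in place of 7 and 5. Of 16 alternative settings, MAMDC2, CST1 and AC069257.1 were called in 9 and LCN2 and AL020996.3 in 5. ISG15, F3 and FTL were called in 4, and MX1, AREG, CXCL5 and SAT1 in 3. When the LACZ libraries were added to the fit only to estimate the spread, 67 genes were higher (0.424%) and 34 lower (0.215%), and 10 of the 12 calls were among them. Lying just outside the threshold, at an adjusted p of 0.0557, were genes that included IFI6, PTHLH, QPRT and CCL2.

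**Figure D1:**
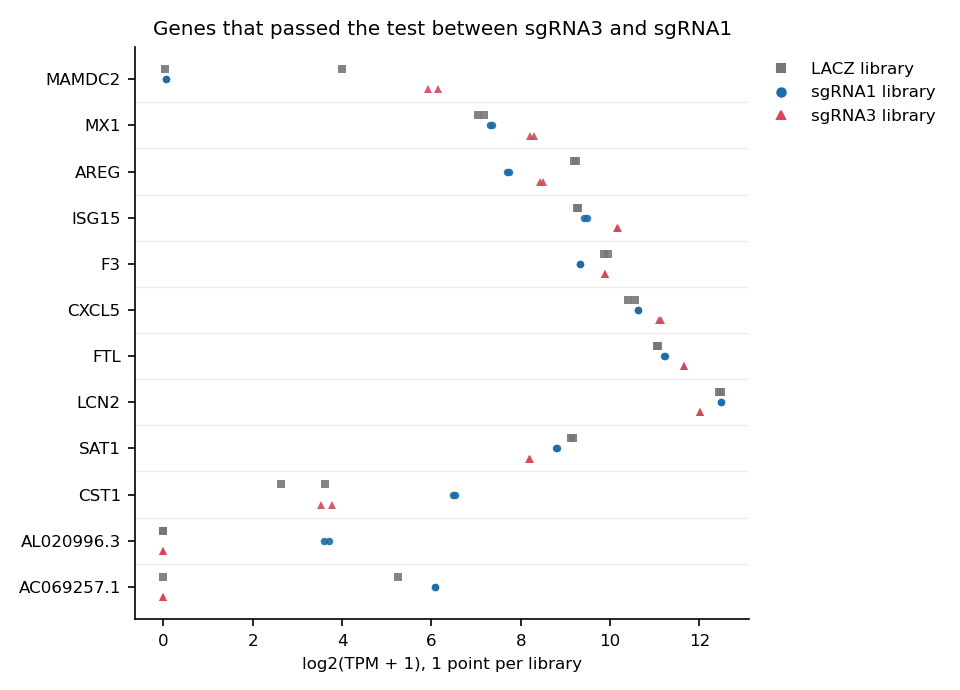
Level of each of the 12 genes that passed the test, as log2(TPM + 1) on the horizontal axis, with 1 point per library for LACZ (grey squares), sgRNA1 (blue circles) and sgRNA3 (red triangles). Replicates of a guide lie nearly on top of each other, while for MAMDC2 and AC069257.1 the LACZ libraries stand far apart (15.1 against 0.02 TPM and 0 against 36.9 TPM).

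The list with the highest median of the 47 examined was that of interferon-induced effectors, of which all 41 genes were tested. Their median log2 difference was 0.56, against 0.039 over all genes tested, and 39 of 41 differences were positive (95.1%, beside 57.3% of all genes). Of the 41, 2 passed the test as higher (MX1 and ISG15), beside 0.0443% of all genes. With the LACZ libraries in the fit 9 passed as higher, beside 0.424% of all genes. The sgRNA3 libraries lay above the sgRNA1 libraries without overlap for 38 members (92.7%, beside 29% of all genes). The median stayed between 0.42 and 0.62 under the 16 alternative settings.

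Promoters of 4 effectors are shown because many members carry the element that interferon-activated factors bind, the interferon-stimulated response element. It was searched as GAAA, any 2 bases and GAAA, on both strands, in RefSeq windows (GRCh38.p14) from 250 bases before to 50 bases after the start, which exist for 10402 of the tested genes, and matches are in capitals. Each sequence reads along the gene's own strand.
ISG15 (chr1:1013247-1013546, plus strand): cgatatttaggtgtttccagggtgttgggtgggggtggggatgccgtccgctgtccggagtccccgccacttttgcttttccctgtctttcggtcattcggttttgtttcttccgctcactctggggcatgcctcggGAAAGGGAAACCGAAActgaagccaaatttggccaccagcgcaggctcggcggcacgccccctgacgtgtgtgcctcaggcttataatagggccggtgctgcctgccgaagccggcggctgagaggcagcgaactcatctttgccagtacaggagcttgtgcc
MX1 (chr21:41420308-41420607, plus strand): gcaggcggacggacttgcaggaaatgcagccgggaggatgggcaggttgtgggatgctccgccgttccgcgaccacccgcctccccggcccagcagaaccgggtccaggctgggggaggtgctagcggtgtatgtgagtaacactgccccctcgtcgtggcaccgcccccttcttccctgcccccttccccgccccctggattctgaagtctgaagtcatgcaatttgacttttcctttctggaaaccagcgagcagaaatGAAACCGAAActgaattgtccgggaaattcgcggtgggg
IFI6 (chr1:27672143-27672442, minus strand): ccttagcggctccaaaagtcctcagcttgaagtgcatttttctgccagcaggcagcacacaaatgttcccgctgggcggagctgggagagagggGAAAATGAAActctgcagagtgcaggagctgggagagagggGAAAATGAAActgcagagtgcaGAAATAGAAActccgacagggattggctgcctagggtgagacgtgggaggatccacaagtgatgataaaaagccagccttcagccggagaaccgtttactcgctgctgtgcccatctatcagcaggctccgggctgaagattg
IFIT1 (chr10:89392373-89392672, plus strand): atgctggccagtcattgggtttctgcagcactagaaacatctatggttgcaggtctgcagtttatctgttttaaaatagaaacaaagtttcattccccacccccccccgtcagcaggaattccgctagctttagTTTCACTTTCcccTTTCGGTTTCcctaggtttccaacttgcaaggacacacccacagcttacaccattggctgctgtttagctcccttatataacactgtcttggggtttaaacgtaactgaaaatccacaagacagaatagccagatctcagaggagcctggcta
The ISG15 window holds 2 overlapping matches that begin 113 and 107 bases before the start, and the IFIT1 window 2 that begin 116 and 103 bases before it on the opposite strand. IFI6 has 3, the farthest 156 and the nearest 93 bases before the start, and 2 of them lie within copies of a repeated stretch. MX1 has 3 annotated windows, and the window shown holds 1 match, 11 bases after its start. Counting a gene if any of its windows matches, the letters occur in 26 of the 33 effectors with a window (78.8%). The share was 4.18% of the 10402 tested genes with a window (435 genes) and 3.57% of all 35116 single windows. Among tested genes outside the interferon lists, 405 hold the letters, with a median difference of 0.060 and 35.8% separated upward, beside 0.038 and 30.2% for the 9967 tested genes without them. A match of letters is a description and not evidence of binding.

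MX1 (ENSG00000157601, chromosome 21, 41420304 to 41459214), a dynamin-like GTPase that traps viral ribonucleoproteins, was at 164 and 158 TPM with sgRNA1 and 293 and 313 with sgRNA3, and at 143 and 130.1 in LACZ. The sgRNA3 libraries stood apart from all 4 others, which were close together. In bulk RNA, more cells with a transcript and more transcript per cell cannot be told apart. The sgRNA3 mean was 1.88 times the sgRNA1 mean (log2 difference 0.91, SE 0.052, limma adjusted p = 0.0495). ISG15 (ENSG00000187608, chromosome 1, 1001138 to 1014540), a ubiquitin-like protein that is attached to other proteins after interferon, was at 687 and 719 TPM with sgRNA1, 1134 and 1165 with sgRNA3 and 617 and 623 in LACZ. Again both sgRNA3 values lay above every other library (log2 difference 0.71, SE 0.038, limma adjusted p = 0.0495).

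The other effectors passed no threshold in the 4-library fit and are given by their values. IFI6, a mitochondrial and endoplasmic reticulum protein, was at 308 and 329 TPM with sgRNA1 and 536 and 529 with sgRNA3 (log2 difference 0.74, limma adjusted p = 0.0557). IFIT1, which binds viral RNA lacking host cap methylation, was at 62.2 and 61.3 against 117 and 106 TPM (0.84, 0.0626), and its partner IFIT3 at 59.4 and 54.9 against 103 and 97.9 (0.80, 0.0626). In all 3 genes the LACZ libraries lay below both guides. CMPK2, a mitochondrial nucleotide kinase, had the largest log2 difference of the list at 1.14, with 7.37 and 7.17 TPM against 17.1 and 17.4. USP18, the protease that removes ISG15, was at 25.8 and 27.9 against 47.1 and 45.5 TPM (0.77). The 2-5A synthetases OAS2, OAS3 and OAS1, which start RNA decay by RNase L, had log2 differences of 0.97, 0.56 and 0.44. Separation of the libraries held for each of these 8 genes, as for MX2, RSAD2, IFI44L and IFIT2.

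Some effectors differed little or ran the other way. The membrane proteins IFITM1, IFITM2 and IFITM3, which block viral entry, had log2 differences of 0.23, -0.08 and 0.29. IFI27, the most abundant member, was at 3166 and 3238 TPM with sgRNA1 and 3746 and 3779 with sgRNA3 (0.23). GBP2, a guanylate-binding protein known to respond to interferon gamma, ran against the list at 76.6 and 76.2 TPM with sgRNA1 and 55.5 and 54.3 with sgRNA3 (log2 difference -0.47, limma adjusted p = 0.106). It was the only list member called lower with all 6 libraries in the fit (limma adjusted p = 0.0328), while GBP1 (0.25) and GBP3 (0.18) were positive. ISG20 was the only member whose libraries overlapped. The mean of the LACZ libraries lay below both guides for 30 of the 41 effectors (73.2%, beside 31.3% of all genes) and between the guides for 10, so for most of them LACZ, sgRNA1 and sgRNA3 came in that order.

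**Figure D2:**
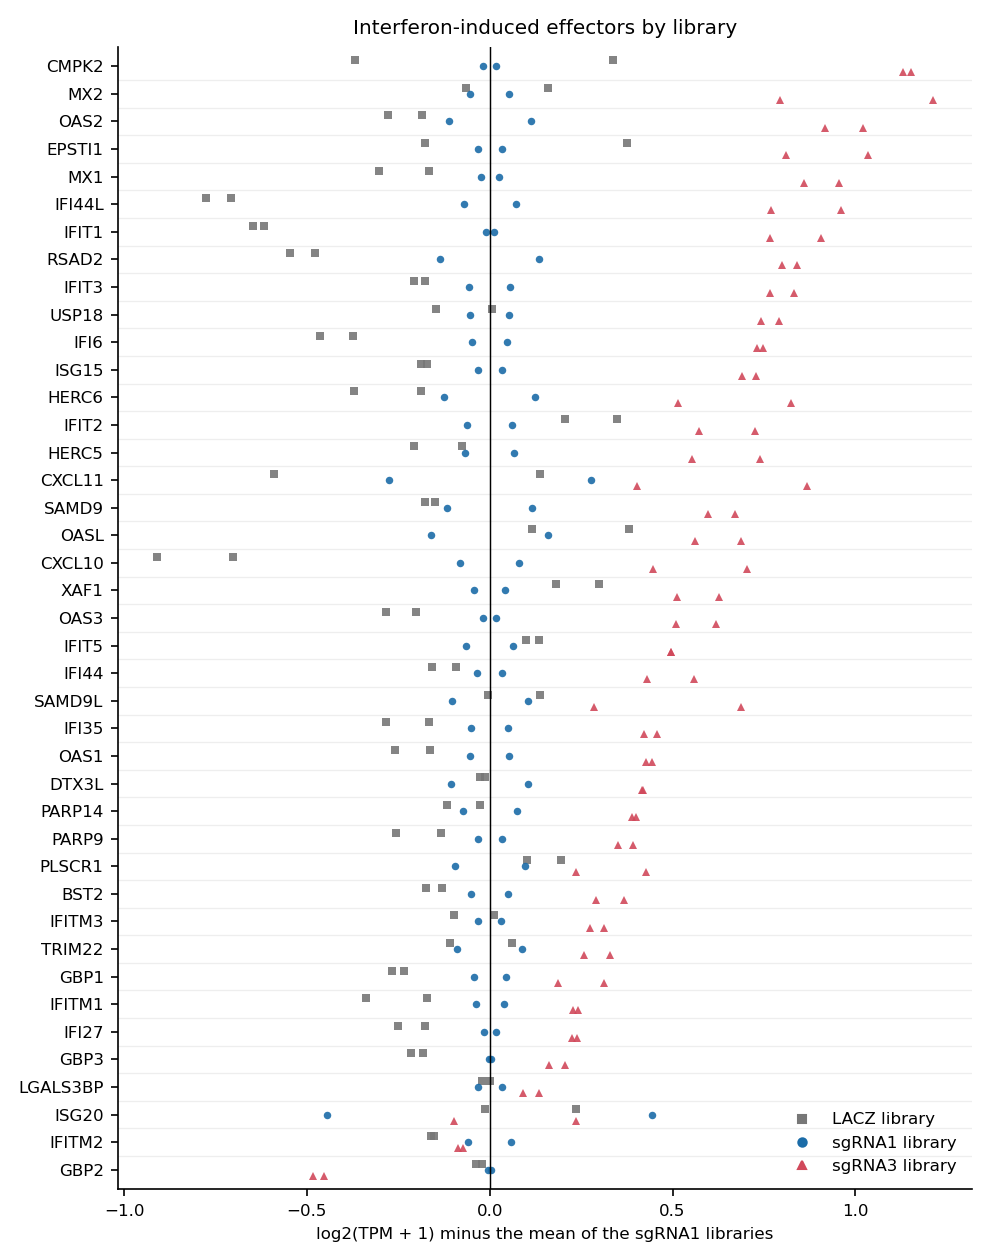
Each row is an interferon-induced effector, and the horizontal axis gives log2(TPM + 1) minus the mean of the sgRNA1 libraries, with 1 point per LACZ (grey squares), sgRNA1 (blue circles) and sgRNA3 (red triangles) library. The sgRNA3 libraries lie right of both sgRNA1 libraries in 38 of 41 rows, and only IFITM2 and GBP2 have both sgRNA3 libraries on the left.

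Upstream of the effectors, 24 of 26 listed interferon signalling genes and RNA sensors were tested and none passed. Their median was 0.21, 15 were separated upward (62.5%, beside 29% of all genes) and 3 downward (12.5%, beside 18.9%). IRF7, which amplifies interferon production and passed in the 6-library fit, was at 40.4 and 37.1 TPM with sgRNA1 and 59.7 and 61.9 with sgRNA3 (log2 difference 0.64, limma adjusted p = 0.106), and in LACZ at 45.8 and 47.6, between the guides. IRF9 and STAT2, which take part in binding the response element, had log2 differences of 0.56 and 0.14. Among the sensors of double-stranded RNA, EIF2AK2 (PKR) had a difference of 0.54, IFIH1 (MDA5) 0.53, DDX58 (RIG-I) 0.38 and TLR3 0.29. The receptors gave no shared direction: IFNAR1 was at 0.21, IFNAR2 at -0.48, IFNGR1 at -0.034 and IFNGR2 at -0.059. MHC class I genes, which interferon also raises, had a median of 0.071 over 21 members with none called. Of these, 11 were separated upward (52.4%, beside 29% of all genes) and 1 downward. TAP1 was the member with the smallest p (61.1 and 61.9 against 79.8 and 82.1 TPM, log2 difference 0.39, limma adjusted p = 0.137).

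The second group was the EGF receptor family, with 11 of 14 listed genes tested and a median difference of 0.43. Of these, 7 were separated upward (63.6%, beside 29% of all genes) and 2 downward (18.2%, beside 18.9%). AREG passed the test, beside 0.0443% of all genes called higher. With 6 libraries AREG, EREG and HBEGF passed, beside 0.424% of all genes. AREG (ENSG00000109321, chromosome 4, 74445134 to 74455009), amphiregulin, a ligand of the EGF receptor, was at 207 and 213 TPM with sgRNA1, 345 and 360.1 with sgRNA3 and 588 and 604 in LACZ. The groups did not overlap, and sgRNA3 lay between sgRNA1 and LACZ. The sgRNA3 mean was 1.68 times the sgRNA1 mean (log2 difference 0.75, SE 0.043, limma adjusted p = 0.0495). EREG, epiregulin, its neighbour on chromosome 4, had the same order at 246 and 227, 380.4 and 383 and 554 and 529.7 TPM in sgRNA1, sgRNA3 and LACZ (0.69, 0.0618). HBEGF, a ligand that binds heparan sulfate, was at 48.5 and 46.8 TPM with sgRNA1 and 69.3 and 65.8 with sgRNA3, with both guides far below the 251 and 239.8 TPM of LACZ. BTC, betacellulin, also on chromosome 4, was at 10.8 and 12.7 against 23.4 and 21.02 TPM (0.87, 0.153), and here sgRNA3 lay above the 15.9 and 14.3 TPM of LACZ. The receptor EGFR was at 74.2 and 65.7 TPM with sgRNA1 and 96.3 and 99.98 with sgRNA3, next to 99.3 and 103 in LACZ (0.48, 0.174), and the ligand TGFA showed the same placing (0.42). ERBB3, a receptor partner without strong kinase activity, went the other way at 15.7 and 16.1 against 10.6 and 12.01 TPM (-0.46, 0.238), and ERBB2 overlapped between the guides (0.027).

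Downstream of these receptors, 27 ERK targets and feedback genes had a median of 0.17 and none called. Of these, 15 were separated upward (55.6%, beside 29% of all genes) and 4 downward (14.8%, beside 18.9%). FOSL1, an AP-1 subunit, was at 239 and 234 TPM with sgRNA1, 304 and 302 with sgRNA3 and 337 and 349 in LACZ (log2 difference 0.36, limma adjusted p = 0.0885), again with sgRNA3 between the other groups. PHLDA2 was at 137 and 138 against 185 and 180.0 TPM (0.41), with LACZ at 141 and 136, level with sgRNA1. Both passed in the 6-library fit. The 14 tested immediate early genes had a median of 0.10 and no calls.

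Chemokines formed the third group. The promoters of 3 neutrophil chemokines on chromosome 4 are shown for the site that NF-kB binds, searched as GGAATTTCC on both strands, with matches in capitals.
CXCL5 (chr4:73998628-73998927, minus strand): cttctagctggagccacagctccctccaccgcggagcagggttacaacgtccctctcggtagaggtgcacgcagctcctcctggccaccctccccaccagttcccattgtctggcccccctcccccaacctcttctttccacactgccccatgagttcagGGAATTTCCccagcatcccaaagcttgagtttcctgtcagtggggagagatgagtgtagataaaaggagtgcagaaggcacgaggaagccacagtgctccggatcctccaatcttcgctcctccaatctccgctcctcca
CXCL8 (chr4:73740319-73740618, plus strand): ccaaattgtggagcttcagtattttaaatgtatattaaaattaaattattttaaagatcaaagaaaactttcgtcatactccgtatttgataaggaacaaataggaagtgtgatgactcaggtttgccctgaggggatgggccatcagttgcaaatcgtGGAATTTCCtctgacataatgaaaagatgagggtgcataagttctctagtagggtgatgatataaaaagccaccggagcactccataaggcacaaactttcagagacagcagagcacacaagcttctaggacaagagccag
CXCL2 (chr4:74099146-74099445, minus strand): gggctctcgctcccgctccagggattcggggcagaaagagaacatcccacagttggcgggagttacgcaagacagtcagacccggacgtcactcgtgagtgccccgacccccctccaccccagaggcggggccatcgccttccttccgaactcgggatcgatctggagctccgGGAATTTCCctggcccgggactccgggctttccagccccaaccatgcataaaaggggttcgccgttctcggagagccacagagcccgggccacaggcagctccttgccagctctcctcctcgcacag
The match begins 90 bases before the start in CXCL5, 91 in CXCL8 and 77 in CXCL2. It occurs in 6 of the 8 tested chemokines with a window (75%) and in none of the 9 EGF family genes with a window. The share was 0.606% of the 10402 tested genes with a window (63 genes) and 0.461% of all single windows. Over the 57 tested genes that hold it outside the chemokine list, the median difference was 0.084 and 36.8% were separated upward, beside 0.039 and 30.5% for the 10339 tested genes without it.

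Of 11 tested chemokines the median difference was 0.38, with 5 separated upward (45.5%, beside 29% of all genes) and 1 downward. CXCL5 (ENSG00000163735, chromosome 4, 73995642 to 73998779), an attractant of neutrophils, was at 1578 and 1590.4 TPM with sgRNA1, 2248 and 2186 with sgRNA3 and 1506 and 1351 in LACZ. It rose with sgRNA3 (log2 difference 0.48, SE 0.028, limma adjusted p = 0.0495), and sgRNA3 lay above all other libraries. CXCL8, CXCL2, CXCL3 and CXCL1, from the same part of chromosome 4, separated in the same direction without passing, and LACZ was highest in each. CXCL8 (interleukin 8) was at 221 and 216 TPM with sgRNA1, 338 and 325 with sgRNA3 and 868 and 786 in LACZ (0.60, 0.0601). CXCL2 was at 64.1 and 63.9 against 99.98 and 107 TPM (0.68, 0.0632), CXCL3 at 261 and 259 against 350.3 and 341 (0.41, 0.071) and CXCL1 at 840.5 and 848 against 1126 and 1068 (0.38, 0.0849). CXCL6, from the same cluster, did not separate (334 and 355 against 353 and 338 TPM). CXCL1, CXCL2, CXCL3, CXCL6 and CXCL5 are close relatives in sequence, and the sources used here do not give how the authors' counting shared reads between near-identical copies. CCL2, which attracts monocytes and lies on chromosome 17, ran opposite to them at 124 and 128 TPM with sgRNA1 and 53.5 and 46.5 with sgRNA3, both above the 18.3 and 22.7 TPM of LACZ (log2 difference -1.32, SE 0.086, limma adjusted p = 0.0557). With 6 libraries in the fit, 5 chemokines passed as higher (beside 0.424% of all genes) and CCL2 as lower (beside 0.215%).

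**Figure D3:**
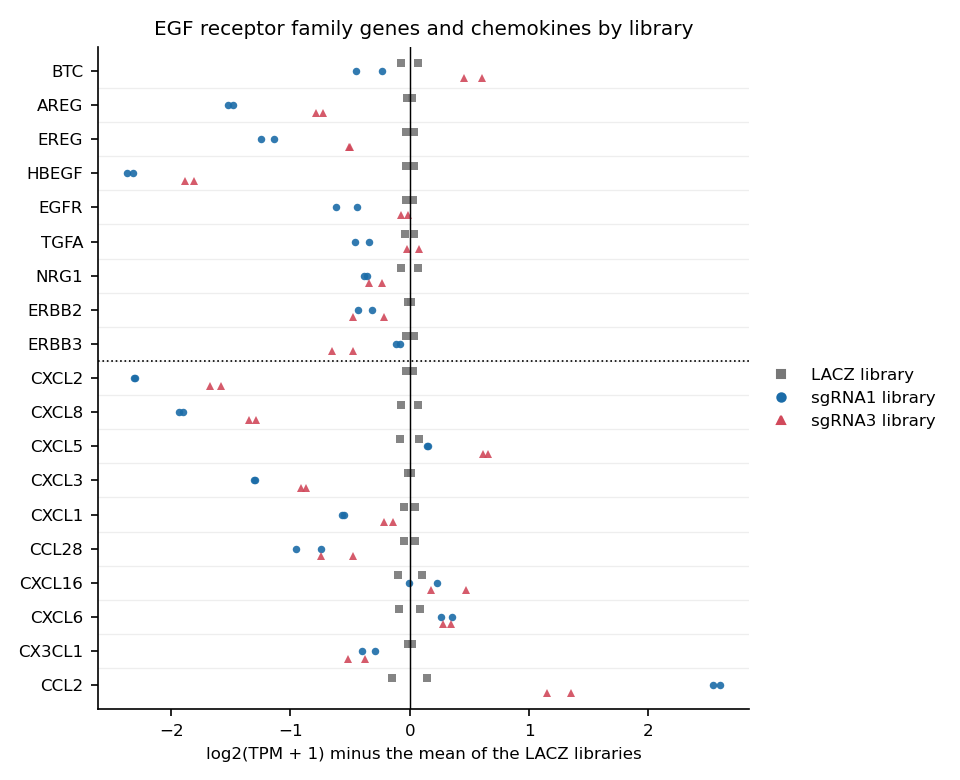
EGF receptor family genes (top) and chemokines (below the dotted line) as log2(TPM + 1) minus the mean of the LACZ libraries, with 1 point per LACZ (grey squares), sgRNA1 (blue circles) and sgRNA3 (red triangles) library. For AREG, EREG, HBEGF, CXCL1, CXCL2, CXCL3 and CXCL8 the sgRNA3 libraries lie between those of sgRNA1 and LACZ, while CXCL5 lies above LACZ and CCL2 is highest with sgRNA1.

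Cytokines and NF-kB feedback genes split. Of 28 tested members 17 were separated upward (60.7%, beside 29% of all genes) and 6 downward (21.4%, beside 18.9%), with a median of 0.23. The single call was LCN2 (ENSG00000148346, chromosome 9, 128149071 to 128153455), lipocalin 2, a secreted protein that binds bacterial siderophores, and it fell with sgRNA3. It was at 5737 and 5748 TPM with sgRNA1, 4101 and 4109 with sgRNA3 and 5588 and 5739 in LACZ (log2 difference -0.48, SE 0.021, limma adjusted p = 0.0407), so sgRNA1 was level with LACZ and sgRNA3 below both. CFB, complement factor B, was at 183 and 172 against 103 and 95.3 TPM (-0.83, 0.0618), with LACZ between the guides at 148 and 165. IL6 ran the other way at 58.5 and 53.4 against 104 and 103 TPM, with LACZ at 209 and 211 (0.88, 0.0618), as did the growth factor CSF2 at 48.3 and 44.1 against 71.3 and 72.8 (0.63, 0.103). The feedback inhibitors TNFAIP3 (0.40) and NFKBIA (0.19) and the subunit RELB (0.56) were positive, and ICAM1 was at 20.99 and 21.2 against 20.4 and 21.9 TPM. VCAM1, an adhesion molecule outside this list, was at 10.3 and 9.61 TPM with sgRNA1, 0.77 and 0.95 with sgRNA3 and 1.13 and 1.36 in LACZ (-2.56, 0.0584).

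The calls FTL and SAT1 belong to no common list and are described singly. FTL (ENSG00000087086, chromosome 19, 48965301 to 48966878), the light chain of ferritin, the iron store, was at 2369 and 2392 TPM with sgRNA1 and 3223 and 3215 with sgRNA3, above the 2165 and 2129 TPM of LACZ. It rose with a narrow spread (log2 difference 0.44, SE 0.023, limma adjusted p = 0.0495), and the heavy chain FTH1 was at 3668 and 3829.8 against 4563 and 4508 TPM (0.28, 0.103). CP, ceruloplasmin, which oxidises iron for export, was at 14.6 and 16.4 TPM with sgRNA1 and 3.68 and 3.05 with sgRNA3 (-1.92, 0.0618). SAT1 (ENSG00000130066, chromosome X, 23783173 to 23786226), the acetyltransferase that starts polyamine breakdown, fell from 448 and 439 TPM with sgRNA1 to 291 and 294 with sgRNA3 (log2 difference -0.60, SE 0.034, limma adjusted p = 0.0495). LACZ was at 571 and 558 TPM, so both guides lay below it and sgRNA3 furthest. Of 21 tested NRF2 targets, which include the ferritin genes, 12 were separated upward (57.1%, beside 29% of all genes) with a list median of 0.097.

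Secreted proteins and proteases went both ways. F3 (ENSG00000117525, chromosome 1, 94529225 to 94541800), tissue factor, which starts blood clotting, was at 645 and 644 TPM with sgRNA1, 947 and 951 with sgRNA3 and 988 and 926 in LACZ. It rose with sgRNA3 relative to sgRNA1 (log2 difference 0.56, SE 0.028, limma adjusted p = 0.0495), and sgRNA3 lay level with LACZ. The same placing held, without a call, for CAV2 (160.1 and 152 against 239 and 238 TPM, LACZ 221 and 234) and DKK1 (111 and 115 against 173 and 170.4, LACZ 162 and 171), a caveolin and a Wnt inhibitor. PLAU, urokinase, which activates plasminogen, was at 1238 and 1199.5 against 1584 and 1555 TPM (0.36, 0.0626), next to 1629.7 and 1652 in LACZ. PTHLH, a secreted hormone related to parathyroid hormone, was at 108 and 104 against 181 and 177 TPM (0.75, 0.0557).

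CST1 (ENSG00000170373, chromosome 20, 23747553 to 23751268), a secreted cystatin that inhibits cysteine proteases, was the lower call of a protein-coding gene with the largest difference. It was at 91.5 and 88.3 TPM with sgRNA1, 12.7 and 10.6 with sgRNA3 and 11.2 and 5.24 in LACZ, and only the sgRNA1 libraries stood apart. The log2 difference was -2.85 (SE 0.11, limma adjusted p = 0.034). CST4, its closely related neighbour on chromosome 20, was at 10.6 and 7.69 against 0.39 and 0.66 TPM (-2.72, 0.0672), and reads of the pair may be shared. MMP7, matrilysin, was at 1819.5 and 1788 against 1433 and 1434 TPM (-0.33, 0.0618). Over 27 tested proteases and antiproteases, 16 were separated downward (59.3%, beside 18.9% of all genes) and 6 upward, with a median of -0.22. QPRT, an enzyme of NAD synthesis, was at 15.9 and 14.4 against 2.46 and 2.72 TPM (-2.17), with LACZ at 5.77 and 4.39, and AC009086.2 overlaps it on the same strand. CYP3A5, a drug-metabolising cytochrome, was at 50.5 and 48.3 against 21.99 and 24.1 TPM, with LACZ at 21.02 and 20.5, so here too sgRNA1 stood apart. NNMT, a methyltransferase of nicotinamide, was at 228 and 227 against 155 and 147 TPM (-0.59) and lay below the 314 and 349 of LACZ with both guides. The heparin-binding growth factor MDK was at 439 and 446 against 324 and 332 TPM (-0.43), with LACZ at 418 and 423.

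The largest differences belonged to genes that were nearly off in 1 line. MAMDC2 (ENSG00000165072, chromosome 9, 70043581 to 70226970), an extracellular protein with MAM domains, was at 0.04 TPM in both sgRNA1 libraries and at 59.7 and 70.3 with sgRNA3 (log2 difference 5.98, SE 0.15, limma adjusted p = 0.00769). The LACZ libraries disagreed with each other at 15.1 and 0.02 TPM, and with them in the fit the call was lost (limma adjusted p = 0.122). AC069257.1 (chromosome 3, 196250542 to 196251654), an antisense transcript inside PCYT1A, was at 66.4 and 66.6 TPM with sgRNA1 and listed at 0 in both sgRNA3 libraries (limma adjusted p = 0.00688), while the LACZ libraries were at 0 and 36.9 and the 6-library fit lost the call (0.182). PCYT1A, on the opposite strand, was at 41.8 and 33.5 TPM with sgRNA1 and 42.01 and 40.4 with sgRNA3, and without strand information reads of the pair cannot be told apart. AL020996.3 was at 12.1 and 11.04 TPM with sgRNA1 and listed at 0 in the other 4 libraries (limma adjusted p = 0.0495), and it overlaps MTFR1L, at 19.8 to 21.7 TPM in the guide libraries, on the opposite strand and AUNIP, at 7.51 to 8.47 TPM, on the same strand. These antisense names are clone names outside the rule for naming genes and were chosen after their values were seen. Without passing, FAM9B was at 60.4 and 32.7 TPM with sgRNA1 and 1.68 and 1.91 with sgRNA3, the readthrough gene CCDC169-SOHLH2 was listed at 0 with sgRNA1 and at 35.8 and 19.4 with sgRNA3, and FAM220A was at 0.6 and 0.23 against 14.1 and 11.02 TPM.

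All-or-none values of this kind also occurred between libraries of the same guide. Of the tested genes 181 reached 5 TPM in a library of either guide and were listed at 0 in another. The guides separated in 57 of these, and in 148 the libraries of 1 guide differed from each other in that way. Loci named by the authors' assembly or by clone made up 142 of the 181.

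Most lipid synthesis genes had small positive differences. All 22 cholesterol synthesis genes had a positive difference (beside 57.3% of all genes), with a median of 0.25, though none passed the test. Of these, 17 were separated upward (77.3%, beside 29% of all genes) and none downward. INSIG1, which holds the sterol-sensing complex in the endoplasmic reticulum, was at 39.6 and 39.4 TPM with sgRNA1 and 61.4 and 64.6 with sgRNA3 (log2 difference 0.66, SE 0.063, limma adjusted p = 0.0768). The sterol oxidase MSMO1 was at 49.8 and 50.4 against 69.5 and 68.03 TPM (0.45, 0.12), and INSIG1 and MSMO1 passed in the 6-library fit. The transcription factor SREBF2, which drives sterol synthesis genes, had a log2 difference of 0.017. LACZ lay above both guides for 20 of the 22 genes (90.9%, beside 43.4% of all genes), so the levels ran from LACZ through sgRNA3 to sgRNA1. Fatty acid synthesis genes had a median of 0.20 over 14 members, with 12 positive (85.7%, beside 57.3% of all genes). Of the 14, 8 were separated upward (57.1%, beside 29% of all genes) and 1 downward. The lowest difference was -0.65. The list includes G0S2, an inhibitor of fat breakdown (35.4 and 35.6 against 59.4 and 58.99 TPM, 0.72), and the desaturase SCD (131 and 124 against 181 and 176, 0.49). Each of these 2 passed with 6 libraries.

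Most genes of amino acid stress control and translation factors leaned the same way. Of 38 integrated stress response targets, which ATF4 induces when amino acids run short, 24 were separated upward (63.2%, beside 29% of all genes). The list had 1 member separated downward, a median of 0.23 and no call. TRIB3, a feedback pseudokinase, was at 41.6 and 42.3 TPM with sgRNA1, 71.8 and 68.3 with sgRNA3 and 148 and 153 in LACZ (0.72, limma adjusted p = 0.0626). The amino acid transporter subunits SLC7A5 (24.5 and 25.2 against 36.5 and 36.2 TPM) and SLC3A2 (148 and 140.3 against 187 and 196) had differences of 0.53 and 0.41. LACZ was above both guides for 34 of the 38 (89.5%, beside 43.4% of all genes). The stress hormone GDF15 was at 18.1 and 22.3 against 18 and 19.5 TPM (-0.093, 0.788). Aminoacyl-tRNA synthetases had a median of 0.13 with 14 of 20 separated upward (70%) and none downward. Ribosome biogenesis factors had a median of 0.20 with 19 of 25 upward (76%) and none downward, beside 29% upward over all genes. For ribosome biogenesis factors LACZ lay below both guides in 15 of the 25 (60%, beside 31.3% of all genes). Cytosolic ribosomal proteins had a median of -0.031, with 34 of 75 separated downward (45.3%, beside 18.9% of all genes).

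Lists that leaned lower with sgRNA3 were mesenchymal genes (median -0.18, 13 of 21 separated downward), mucins and secreted duct products (-0.17, 9 of 18), hypoxia targets (-0.15, 10 of 18), MHC class II (-0.13, 7 of 9) and mitosis genes (-0.075, 15 of 30). The shares separated downward were 61.9%, 50%, 55.6%, 77.8% and 50% in that order, beside 18.9% of all genes. None held a call except the mucin list, through LCN2. SPARC, a matrix glycoprotein, was at 7.59 and 5.85 TPM with sgRNA1 and 1.76 and 1.56 with sgRNA3, VIM at 1836 and 1773 against 1609 and 1635, and HLA-DPA1 at 47.4 and 47.8 against 36.05 and 36.6. SPP1, osteopontin, from the ductal transport and identity list, was at 27.02 and 33.9 against 10.02 and 8.21 TPM, with LACZ at 5.86 and 5.34 (-1.63, limma adjusted p = 0.0862). COL1A1, which carries the fibroblast sum above and whose part in the mesenchymal and matrix values was not tested, was at 57.4 and 55.5 against 39.01 and 35.1 TPM (-0.60, 0.137), with LACZ at 74.8 and 74.02. LAMA3, a laminin chain of the basement membrane, was at 201 and 175 against 301 and 308 TPM (0.70).

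Genes for the substrate of SULF2 held no call, which says little about them because only 0.076% of all genes were called. The 24 tested enzymes that build and modify heparan sulfate chains had a median of 0.034, beside 0.039 over all genes. Of these, 10 were separated upward (41.7%, beside 29% of all genes) and 4 downward (16.7%, beside 18.9%). The chain polymerase EXT1 was at 29.6 and 30.3 against 38.4 and 35.4 TPM (0.29, limma adjusted p = 0.257) and the 2-O-sulfotransferase HS2ST1 at 19.1 and 19.6 against 15.6 and 15.3 (-0.31, 0.268). Of 14 core proteins 7 were separated downward (50%, beside 18.9% of all genes) and 3 upward (21.4%, beside 29%), among them GPC4 (-0.30) and CD44 (0.33). The median of the 14 was -0.071. The 12 tested neighbours of SULF2 on chromosome 20 had a median of 0.025.

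**Figure D4:**
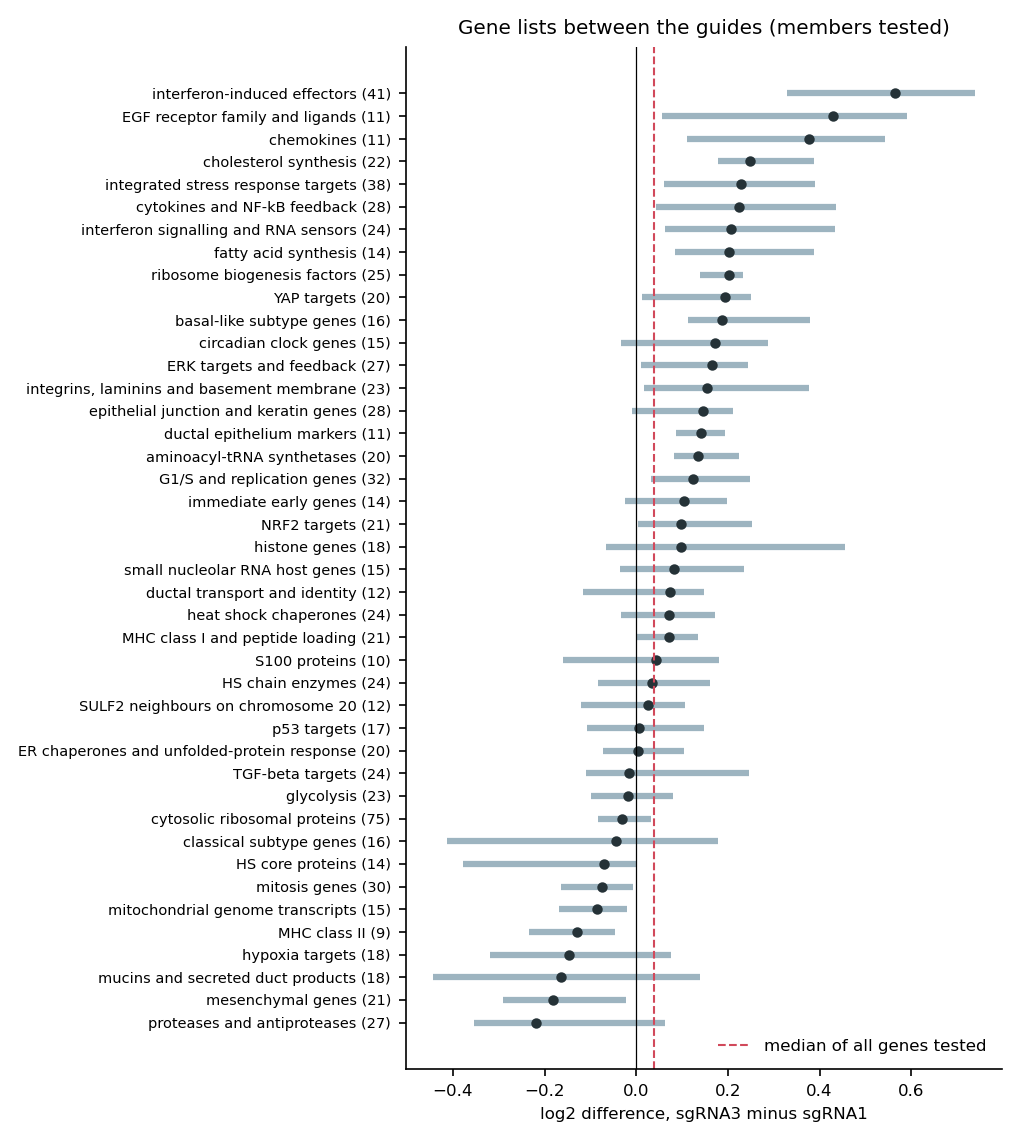
Median (dot) and interquartile range (bar) of the log2 difference, sgRNA3 minus sgRNA1, over the tested members of each gene list with at least 9 of them, with the number tested in brackets and the median of all genes tested as a dashed line. Interferon-induced effectors (0.56), the EGF receptor family (0.43) and chemokines (0.38) lie farthest right, and proteases and antiproteases (-0.22) farthest left.

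The LACZ libraries place the 12 called genes on different sides. The LACZ mean lay above both guides for 3 (AREG, F3, SAT1), below both for 5 (MX1, ISG15, CXCL5, FTL, CST1) and between them for MAMDC2, LCN2 and AC069257.1. AL020996.3 was listed at 0 in LACZ as with sgRNA3. These placings are of means. Single LACZ libraries overlapped those of sgRNA3 for F3 and CST1 and those of sgRNA1 for LCN2, and they disagreed for MAMDC2 and AC069257.1. Over all genes tested LACZ lay above both in 6850, between the guides in 3989 and below both in 4947.

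Differences were also unevenly spread over the chromosomes, on a scale smaller than that of the named genes. Chromosome 4 had the highest median, 0.13 over 557 genes, with 47.4% of its genes separated upward and 11.3% downward, followed by chromosome 18 (0.12) and chromosome 13 (0.090), and chromosome 5 had the lowest among the autosomes (0.0014). AREG, EREG, BTC and the CXCL cluster lie on chromosome 4, and the median over its 547 genes without chemokine and EGF ligand genes was 0.13. All 10 windows of 20 Mb along the chromosome lay above the median of all placed genes (0.074 to 0.21). Between replicates of a guide, chromosome 4 was near the other chromosomes (-0.049 with sgRNA1 and 0.0091 with sgRNA3, beside -0.060 and 0.0081 over all placed genes). Relative to LACZ, which both differences share, its median was -0.035 with sgRNA1 and 0.087 with sgRNA3, beside -0.061 and -0.036 over all placed genes. The differences of AREG (0.75), EREG (0.69), CXCL8 (0.60) and CXCL5 (0.48) are larger than this shift, and its part in them was not tested.

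**Figure D5:**
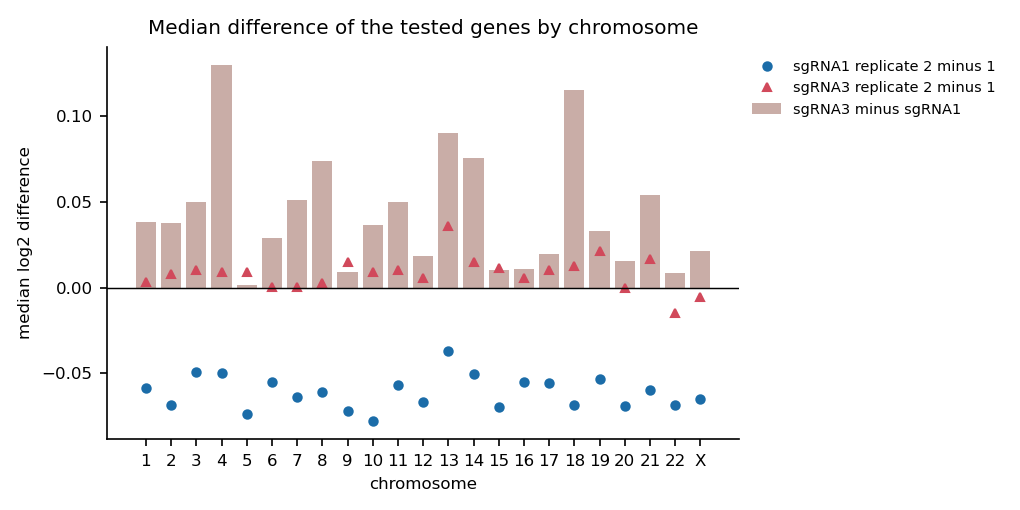
Median log2 difference over the tested genes of each chromosome: bars give sgRNA3 minus sgRNA1, and points give the second minus the first replicate of sgRNA1 (blue circles) and of sgRNA3 (red triangles). The bars of chromosomes 4 and 18 are the tallest (0.13 and 0.12), and neither stands out among the replicate differences.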

How the data were processed

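RNA-seq libraries of CFPAC-1 cells, 2 each in the groups LACZ, sgRNA1 and sgRNA3, were measured. The authors deposited TPM values for 59962 genes. Per the submitters' processing notes, the tools were DESeq2 1.24.0, RSEM 1.3.1 and HISAT2 2.1.0, in no stated order, with GRCh38. The sources used here do not give strandedness or annotation release. The guide number linked the columns marked H1 and H3 to the samples titled S1 and S3. Symbols, types and coordinates came from GENCODE 29, which held 58611 identifiers, and promoter windows from RefSeq (GRCh38.p14).

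Genes with a TPM of at least 1 in at least 2 of the 4 SULF2 guide libraries were analysed as log2(TPM + 1) with limma 3.58.1 in R 4.3.3, letting the prior variance follow intensity (2 residual and 2.31 prior degrees of freedom). Every limma p is two-sided. Adjusted p-values use Benjamini-Hochberg over the genes tested in each fit, 15786 in the main fit, and the threshold was 0.05. Differences on this scale understate those of low genes. DESeq2 was not used, since TPM values are not counts. The script was tested on simulated data. The 47 lists held 1047 entries, 1044 matched by symbol, 2 by an older symbol and 1, SOD2, dropped as ambiguous, and lists share members. They also covered YAP, TGF-beta, p53, circadian, glycolysis, heat shock, histone and other genes. The comparison, the lists and their members were chosen with earlier results of these data known. Named were SULF2, up to 15 genes per direction (called genes first, then by smallest p, with a mean of at least 5 TPM in the higher group, no overlap and no clone name), up to 4 members per list by smallest p, and further list members by their levels. The 16 alternatives changed pseudocount, filter, scaling, variance model, threshold, the libraries in the fit or a replicate block, or left out each library in turn. Some genes are not reported here.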

Additional observations from a re-analysis of the deposited data

How the results depend on the processing

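The counts of genes higher and lower with sgRNA3, and of interferon-induced effectors called higher, were 7, 5 and 2. With a pseudocount of 0.1 they were 9, 4 and 2, and AL020996.3 lost its call (limma adjusted p = 0.0592). They were 1, 2 and 0 with a pseudocount of 5, median-of-ratios scaling, quantile normalization or no intensity trend. With array weights or a log2 difference of at least 1 they were 1, 3 and 0, and without mitochondrial genes 4, 4 and 1. They rose to 41, 26 and 7 with a TPM of at least 5, which tests 11445 genes, and to 67, 34 and 9 with all 6 libraries in the fit. No call was left (0, 0 and 0) without a filter, which tests 27899 genes, where 1651 and 1175 genes had an unadjusted limma p under 0.05. The same held with the replicate block (0, 0 and 0, with 1138 and 770 at an unadjusted p under 0.05). Leaving out sgRNA1 replicate 1 or 2 or sgRNA3 replicate 1 or 2 also gave 0 calls each time, with 848 to 1339 higher and 587 to 836 lower at an unadjusted p under 0.05. The lone library then left in a group was assumed to vary as the other group did. The labels tie no libraries by replicate number, and the replicate differences of the guides correlated at -0.043 across genes, which are not independent replicates. Why the counts changed between these settings was not tested. Single genes changed sign as follows: MT-CO1 to 0.13 under quantile normalization, and with each library left out in turn SULF2 (-0.38 to 0.093), LUM (-0.14 to 0.45), NKX6-1 (-0.14 to 0.0048), CHGB (-0.21 to 0.27) and ESAM (-0.15 to 0.33). None of these had passed the test. List medians changed sign under some alternative for ER chaperones, heparan sulfate chain enzymes, SULF2 neighbours, TGF-beta and p53 targets, mitochondrial transcripts, and endothelial and islet markers, and for no other list. Depth is unknown, so no counting limit can be given.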

Other observations

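Medians of further lists are given here, and some lay close to the 0.039 of all genes tested. Over all genes 29% were separated upward and 18.9% downward. Basal-like subtype genes of pancreatic cancer had a median of 0.19 over 16 members with 11 separated upward, among them DHRS9, a retinol dehydrogenase, at 19.5 and 18.8 TPM with sgRNA1 and 37.2 and 36.4 with sgRNA3 (log2 difference 0.91, limma adjusted p = 0.0626), and FGFBP1, a carrier of FGF, at 64.6 and 59.02 against 118 and 106 TPM (0.85, 0.0823). Classical subtype genes had a median of -0.044 over 16 members, with 8 separated downward and 5 upward. The mucosal adhesion protein CEACAM6 was at 43.8 and 41.8 against 29.2 and 26.5 TPM (-0.60) and the trefoil peptide TFF1 at 28.4 and 23.9 against 39.97 and 40.7 (0.61). The calcium-binding protein S100P was at 16.8 and 14.1 against 39.8 and 31.6 TPM (1.15, 0.137), while LACZ was at 6.92 and 9.64.

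Histone genes spread widely around a median of 0.097, with 7 of 18 separated upward and 6 downward. HIST1H2BK was at 235 and 229 TPM with sgRNA1 and 329.6 and 341 with sgRNA3 (0.53, limma adjusted p = 0.0618), and HIST1H2AC at 31.2 and 32.1 against 46.8 and 48.7 (0.58). G1/S and replication genes had a median of 0.12, with 19 of 32 separated upward (59.4%, beside 29% of all genes). LACZ lay below both guides in 29 of them (90.6%, beside 31.3%). CDC6, which loads the replicative helicase, was at 151 and 141 TPM with sgRNA1, 178 and 177 with sgRNA3 and 135 and 136 in LACZ, and GINS1, a part of that helicase, ran the other way at 43.97 and 47.4 against 30.6 and 34.9. The cell-cycle inhibitor CDKN1A was at 20.4 and 19.2 TPM with sgRNA1 and 33.3 and 29.2 with sgRNA3, level with 30.3 and 32.5 in LACZ (0.63, limma adjusted p = 0.174). YAP targets had a median of 0.19 with 11 of 20 separated upward, including F3 (55%, beside 29% of all genes). Glycolysis genes had a median of -0.019, with ENO2 at 40.9 and 37.3 against 25.8 and 22.9 TPM and TXNIP at 49.6 and 49.8 against 65.3 and 65.2. Medians of the other lists included 0.17 for 15 circadian clock genes, 0.071 for 24 heat shock chaperones, 0.0061 for 17 p53 targets and -0.016 for 24 TGF-beta targets, with no call among them.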
